A study of Mus musculus with 9 samples.

Results

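Oncofetal and liver tumour markers are genes that are active in the fetal liver or in liver tumours and low or silent in healthy adult liver. The 8 followed here were Afp, Gpc3, H19, Igf2, Dlk1, Igf2bp2, Igf2bp3 and Golm1. Each gene was matched to the array through the RefSeq accession printed for its probe. By this rule 7 of the 8 genes had a probe, and these 7 genes held 9 of the 55681 distinct probes that are not controls. No probe was matched to H19.

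Liver RNA of male mice aged 20 weeks was hybridised in a single colour, with 3 arrays in each of 3 groups and 1 mouse per array, giving 9 arrays. STAM mice are C57B/6 J mice that received streptozotocin, a toxin of insulin-producing cells, shortly after birth and then a high-fat diet, and they develop diabetes, steatohepatitis and liver tumours. STAM-NON mice had no further treatment, STAM-INS mice were given insulin glargine, a long-acting insulin, by injection, and Normal mice had neither streptozotocin nor the high-fat diet. STAM-INS and STAM-NON therefore share the toxin and the diet, the labels name the tissue only as liver, and they do not say whether tumour was part of it.

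Alpha-fetoprotein, encoded by Afp, is the main serum protein of the fetus, is switched off in the liver after birth and is used as a serum marker of hepatocellular carcinoma. Igf2, H19 and Dlk1 are imprinted genes, read from the allele of 1 parent, and are high in fetal liver. Gpc3 encodes a proteoglycan of the cell surface, Igf2bp2 and Igf2bp3 encode proteins that bind Igf2 and other RNAs, and Golm1 encodes a Golgi membrane protein that is shed into the blood. Afp lies on chromosome 5 between Alb and Afm, 2 other genes of the albumin family. Igf2 and H19 lie close to each other on chromosome 7, and Dlk1 is followed by the imprinted genes Meg3 and Rtl1 on chromosome 12.

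The promoters of the 3 members whose probes were bright enough to test are shown first, since these are the genes on which the comparisons below turn. Each is the window of 250 bases before the annotated start in RefSeq (GRCm38.p6), read 5′ to 3′ on the strand of the gene. Capitals mark the cores of sites for liver factors that were searched on both strands, which were GTTAAT for HNF1, TGTTTAC for FOXA and TATAAA for the TATA box. Afp lies at chr5:90490464-90490713 on the plus strand, Igf2bp2 at chr16:22163300-22163549 on the minus strand and Golm1 at chr13:59675785-59676034 on the minus strand.
Afp: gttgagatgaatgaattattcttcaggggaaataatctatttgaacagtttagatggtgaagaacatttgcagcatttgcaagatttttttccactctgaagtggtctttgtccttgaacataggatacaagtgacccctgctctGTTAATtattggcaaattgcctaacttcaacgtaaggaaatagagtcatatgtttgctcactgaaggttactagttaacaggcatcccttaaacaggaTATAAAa
Igf2bp2: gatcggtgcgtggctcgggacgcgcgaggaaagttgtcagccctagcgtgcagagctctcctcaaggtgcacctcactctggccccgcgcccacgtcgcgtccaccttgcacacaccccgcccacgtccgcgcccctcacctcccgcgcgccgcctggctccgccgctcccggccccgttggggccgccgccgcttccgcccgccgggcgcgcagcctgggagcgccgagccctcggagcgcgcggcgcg
Golm1: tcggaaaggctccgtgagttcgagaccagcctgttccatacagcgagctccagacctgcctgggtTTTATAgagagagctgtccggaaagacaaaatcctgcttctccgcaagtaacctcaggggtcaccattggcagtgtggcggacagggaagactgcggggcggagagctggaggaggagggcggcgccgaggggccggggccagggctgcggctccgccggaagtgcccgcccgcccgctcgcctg

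The Afp window held 1 HNF1 core, from base -105 to base -100, and 1 TATA box, from base -7 to base -2, both counted from the annotated start. The Igf2bp2 window held none of the motifs, and the Golm1 window held 1 TATA box on the opposite strand. Over 32851 such windows of mouse genes, 6.43% held an HNF1 core, 3.17% a FOXA core and 12.4% a TATA box. The letters C and G made up 36% of the Afp window, 77.2% of the Igf2bp2 window and 65.6% of the Golm1 window, against a median of 52.4%. Of the members that were too dim to test, Dlk1 had 2 FOXA cores in its window and Gpc3, Igf2 and Igf2bp3 had none of the motifs. A match of these letters is a description and not a site of binding.

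Levels are given as the processed signal of the scanner software and as centred log2 signal, which is the log2 of that signal minus the 75th percentile of the array. A probe was tested when it was well above background on all 3 arrays of at least 1 group, which left 26278 probes, and a difference was called at an adjusted p under 0.05 (limma with Benjamini-Hochberg adjustment over all of these probes). Afp, Golm1 and both probes of Igf2bp2 passed this filter, and Gpc3, Igf2, Dlk1 and Igf2bp3 did not. Between 46.2% and 65.0% of the spots of an array were well above background, and the 3 arrays with the highest share were STAM-INS 1, STAM-NON 3 and STAM-NON 1. Arrays of 1 group correlated at 0.979 or more over the tested probes. All 6 STAM arrays lay on 1 slide and all Normal arrays on another, so slide and group cannot be told apart in any comparison with Normal. STAM-NON arrays and STAM-INS 1 lay in row 1 of their slide and the other arrays in row 2. The markers of hepatocytes, 8 of 8, were well above background on every array.

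Afp had the widest spread among the tested members. Its processed signal was 1136, 427 and 1050 on the 3 STAM-NON arrays. It was 2936, 599.6 and 358 on the 3 STAM-INS arrays, and 57.5, 128 and 68.5 on the 3 Normal arrays. All STAM arrays lay above all Normal arrays. On the centred scale, on which the folds below are given throughout, the highest array, STAM-INS 1, was 46.7-fold above the lowest, Normal 1. Within STAM-INS the arrays differed on that scale by 7.57-fold, within STAM-NON by 2.13-fold and within Normal by 2.34-fold. Afp is printed on the array in 10 spots, and the signal of these spots varied on each array by 3.17% to 10.4% (coefficient of variation). The spread between mice was thus far wider than that between spots.

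**Figure D1:**
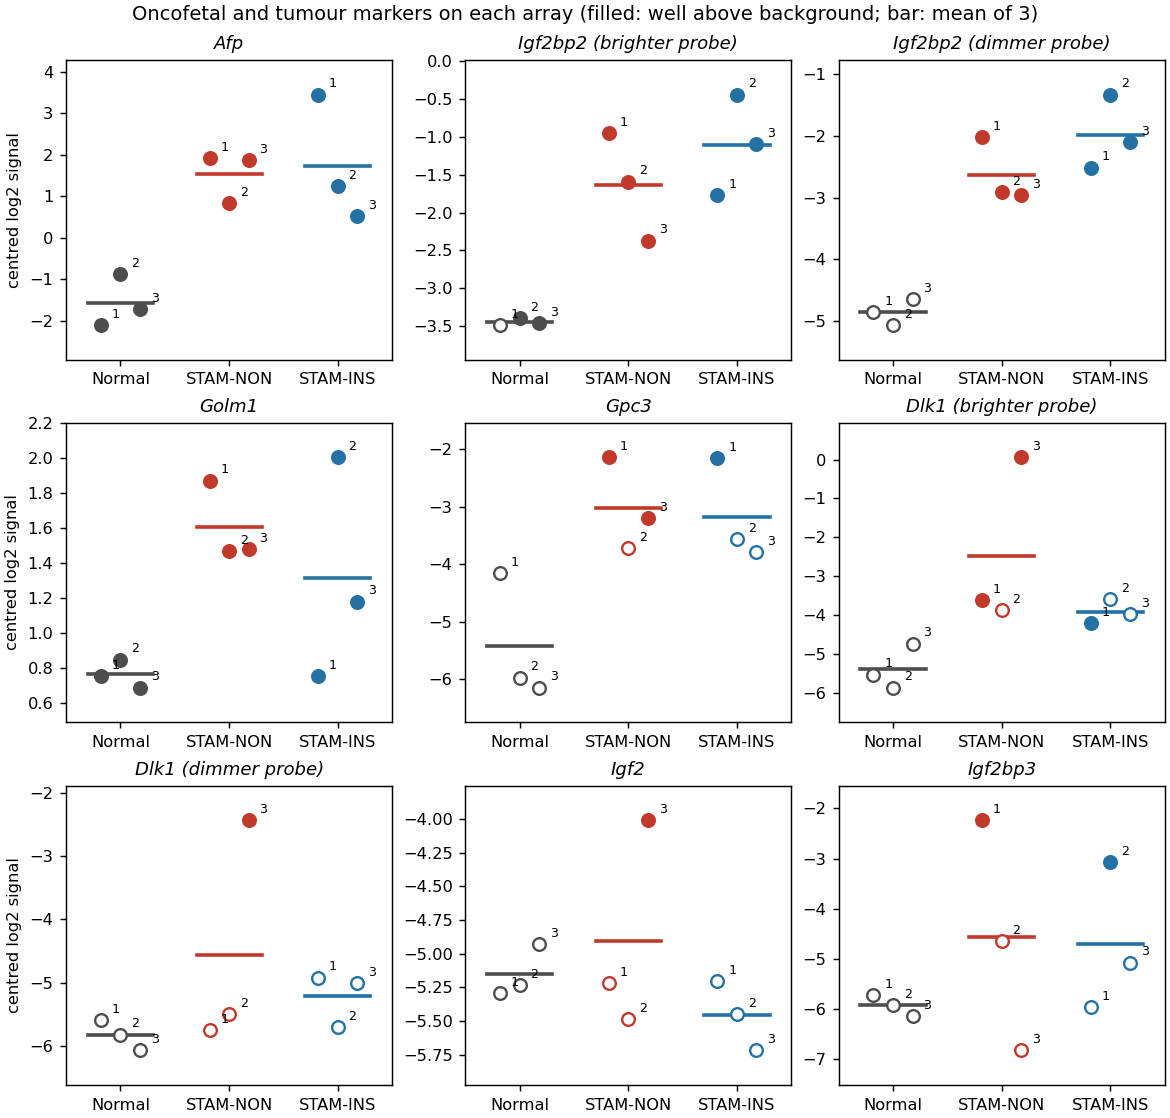
Centred log2 signal (y axis) of the 9 probes of 7 oncofetal and tumour markers on each array of the Normal, STAM-NON and STAM-INS groups (x axis). Each point is 1 mouse with its replicate number, filled where the probe was well above background and open where it was not, and the bar is the mean of the 3 arrays. Each panel has its own scale. Afp and Igf2bp2 were higher on all 6 STAM arrays than on the Normal arrays, while Dlk1 and Igf2 stood out on STAM-NON 3 and Igf2bp3 on STAM-NON 1 and STAM-INS 2.

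Against Normal, Afp was higher in STAM-NON by 3.10 on the log2 scale (standard error 0.71), from -1.56 ± 0.63 to 1.54 ± 0.62 centred log2 signal (SD, n = 3). This is 8.59-fold, with a 95% interval of 2.81-fold to 26.3-fold, and it passed the test across all probes (limma adjusted p = 0.0269). In this comparison 16.1% of the tested probes were called in either direction and 6.3% as higher in STAM-NON, and 2 of the 3 tested members, Afp and Igf2bp2, were called higher. The median difference of all tested probes was -0.13. The call for Afp was lost without STAM-NON 1 or 3 or any Normal array, with adjusted p between 0.0556 and 0.0824 (limma). Without the 3 arrays with the most spots above background the difference was 2.39 (limma adjusted p = 0.0996), in a fit that keeps only STAM-NON 2 of its group and takes the spread from the other groups. With the row on the slide as a block the difference was 0.54 and the limma adjusted p 0.759. No row holds both STAM-NON and Normal arrays, so that in this fit they are joined only through STAM-INS.

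Igf2bp2 was lower on every Normal array than on any STAM array, by both of its probes. The brighter probe gave a processed signal of 154.5, 79.8 and 55.5 on the STAM-NON arrays. It gave 79.0, 187 and 116 on the STAM-INS arrays and 22.0, 22.3 and 20.5 on the Normal arrays. STAM-INS 2 was the highest and the Normal arrays lay within 1.07-fold of each other on the centred scale. In STAM-NON against Normal the difference was 1.80 (standard error 0.40), from -3.44 ± 0.05 to -1.64 ± 0.71 centred log2 signal (SD, n = 3), which is 3.49-fold with a 95% interval of 1.86-fold to 6.55-fold (limma adjusted p = 0.0246). On the Normal arrays this probe was well above background on 2 of 3. None of the Normal arrays had the dimmer probe well above background, and against the bound this sets STAM-NON was at least 2.41-fold higher (limma adjusted p = 0.0106). That adjusted p rests on the measured Normal signals, which lie below background, and the probe passed the filter through the STAM arrays. The call by the brighter probe was lost without STAM-NON 1 or any Normal array (limma adjusted p between 0.0645 and 0.0719), and with the row as a block the difference was 2.80 (limma adjusted p = 0.155).

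Golm1, the member with the most even levels, had a processed signal of 1098, 666 and 803 in STAM-NON. In STAM-INS it was 454.5, 1022 and 563, and in Normal it was 415, 422 and 363. In centred log2 signal the STAM-NON arrays, at 1.87, 1.47 and 1.48, lay above the Normal arrays, at 0.75, 0.85 and 0.69. STAM-INS 1, at 0.76, lay among the Normal arrays on that scale, and STAM-INS 2 and 3 lay above them, at 2.005 and 1.18. The difference of STAM-NON from Normal was 0.84 (standard error 0.28), or 1.80-fold, and missed the threshold (limma adjusted p = 0.0749). A fit on the 6 arrays of these groups alone gave the same difference with a limma adjusted p of 0.0291, and without STAM-INS 2 it was 0.0297.

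The untreated mice thus differed from Normal in Afp and in Igf2bp2, and the next comparison asks whether the same markers differed from Normal in mice on insulin. In STAM-INS against Normal 13.9% of the tested probes were called in either direction and 5.16% as higher in STAM-INS, and again 2 of the 3 tested members, Afp and Igf2bp2, were called higher. Afp was higher by 3.30 (standard error 0.71), with a mean of 1.74 ± 1.52 centred log2 signal in STAM-INS (SD, n = 3). This is 9.84-fold with a 95% interval of 3.21-fold to 30.1-fold (limma adjusted p = 0.0222). Without STAM-INS 2, Normal 1 or Normal 3 the limma adjusted p for Afp was between 0.0624 and 0.0747. Within row 2, which holds STAM-INS 2 and 3 and the Normal arrays, the Afp difference was 2.44 and kept its call (limma adjusted p = 0.0281).

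Igf2bp2 was higher in STAM-INS than in Normal by 2.34 (standard error 0.40), with a mean of -1.104 ± 0.66 centred log2 signal (SD, n = 3). This is 5.06-fold, with a 95% interval of 2.70-fold to 9.49-fold (limma adjusted p = 0.0104). The dimmer probe was at least 3.78-fold higher (limma adjusted p = 0.00338), and this adjusted p again rests on Normal signals that were not well above background. Within row 2 the difference by the brighter probe was 2.67 (limma adjusted p = 0.0108). Golm1 differed by 0.55 (standard error 0.28, limma adjusted p = 0.216).

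The comparison of STAM-INS with STAM-NON asks whether insulin treatment went with another level of these markers, and none of the 3 tested members was called. Here 0.0913% of the tested probes were called by limma. Afp differed by 0.20, with a 95% interval of -1.42 to 1.81 on the log2 scale, that is from 0.375-fold to 3.51-fold (limma adjusted p = 0.955). Igf2bp2 differed by 0.54, with an interval of -0.37 to 1.44 (limma adjusted p = 0.742), and Golm1 by -0.29, with an interval of -0.95 to 0.36 (limma adjusted p = 0.810). At an unadjusted p under 0.05, at which 8.78% of all tested probes passed in limma, 0 of the 3 were called by limma and 0 by the methods' test. The intervals leave room for an Afp level in STAM-INS of less than that in STAM-NON as well as for one several times higher. STAM-INS 1 had the highest Afp and the lowest Golm1 of all STAM arrays. STAM-INS 2 had the highest Igf2bp2 and, in centred log2 signal, the highest Golm1. Over the alternatives the Afp difference ran from -0.66, without STAM-INS 1, to 1.91, within row 1 or with the row as a block, and its sign turned without STAM-INS 1 and without STAM-NON 2. The row holds STAM-INS 1 with the STAM-NON arrays, while STAM-INS 2 and 3 lie in the other row, so that row and group overlap here only through that array. The Igf2bp2 difference was -0.13 within row 1, and that of Golm1 was 0.12 without the 3 arrays with the most spots above background.

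**Figure D2:**
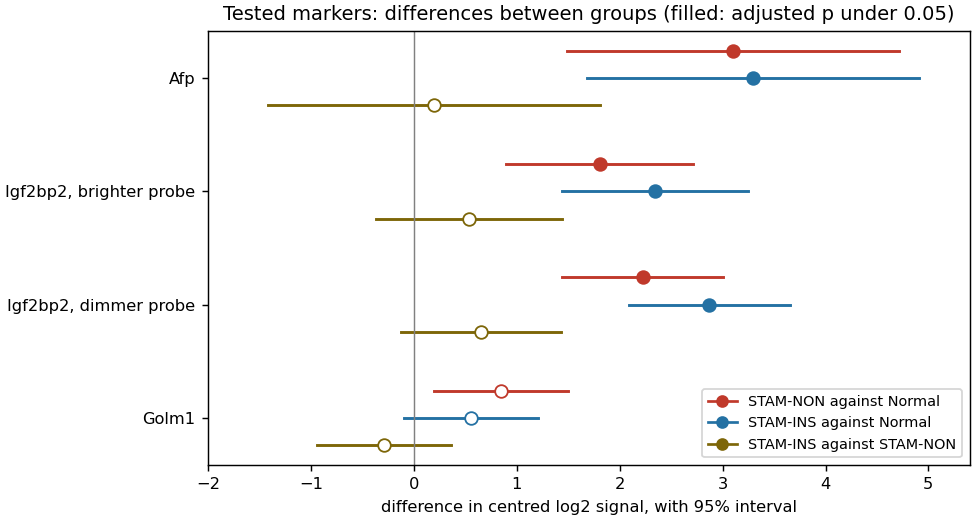
Difference in centred log2 signal (x axis) with its 95% interval for Afp, both probes of Igf2bp2 and Golm1 (y axis) in the 3 comparisons of groups. Filled points passed the test across all probes. The differences of Afp and Igf2bp2 from Normal were between 1.80 and 3.30 and filled. Between STAM-INS and STAM-NON the differences of Afp, Igf2bp2 and Golm1 were between -0.29 and 0.65 and open.

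The remaining members were near or below the background of the array. Gpc3 had a processed signal of 68.0, 18.2 and 31.3 in STAM-NON. It had 60.3, 21.4 and 18.0 in STAM-INS and 13.8, 3.74 and 3.18 in Normal. It was well above background on STAM-NON 1, STAM-NON 3 and STAM-INS 1, the same 3 arrays that had the most spots above background, and on no Normal array. The signals of the Normal arrays and of the other STAM arrays were not well above background and have no order among them, so no fold, p or rank between groups is given for Gpc3.

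Dlk1, a membrane protein related to the Notch ligand Delta that marks fetal hepatoblasts, stood out on 1 array. Its brighter probe gave a processed signal of 24.4, 16.3 and 299 in STAM-NON. It gave 14.5, 21.2 and 15.8 in STAM-INS, and 5.32, 4.003 and 8.46 in Normal. The other STAM arrays and the Normal arrays did not exceed 24.4, and the probe was well above background on STAM-NON 1, STAM-NON 3 and STAM-INS 1 alone. The dimmer probe had a processed signal of 53.1 on STAM-NON 3 and was well above background on no other array. A difference of STAM-NON from Normal thus rested on 1 mouse, and no fold between groups is given for Dlk1.

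Igf2, the fetal growth factor, was well above background only on STAM-NON 3, where its processed signal was 17.9. On the other arrays it lay between 4.73 and 8.06. Igf2bp3 was well above background on STAM-NON 1, with a processed signal of 63.8, and on STAM-INS 2, with 30.1, and lay between 2.53 and 9.57 on the rest. The 2 arrays with Igf2bp3 above background were those with the highest Igf2bp2 of their group. At this signal over background no fold between groups was given for Igf2 and Igf2bp3. Among the 3 tested members, the groups did not overlap for 3 in STAM-NON against Normal and for 2, Afp and Igf2bp2, in STAM-INS against Normal, with Normal lower. Of all tested probes 13.2% and 15.1% were apart in that direction. In STAM-INS against STAM-NON the groups overlapped for each of the 3, while 12.2% of the tested probes were apart in one direction or the other.

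The genes whose profile over the 9 arrays lay closest to that of a tested member were sought among 13383 other genes, by the root mean square difference of profiles set to a mean of 0. For Afp these were Ubd, Thbs1 and Plat, with differences of 0.60, 0.61 and 0.61 on the log2 scale, where the Afp profile itself had a root mean square of 1.72. Igf2bp2 was followed most closely by Spon2, Elovl5 and 2610524H06Rik (0.35, 0.37 and 0.38, against 1.101). Golm1 was followed by Nenf, 2510009E07Rik and Hgf (0.15, 0.15 and 0.16, against 0.47). Likeness over these 9 arrays is a description and carries no test.

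**Figure D3:**
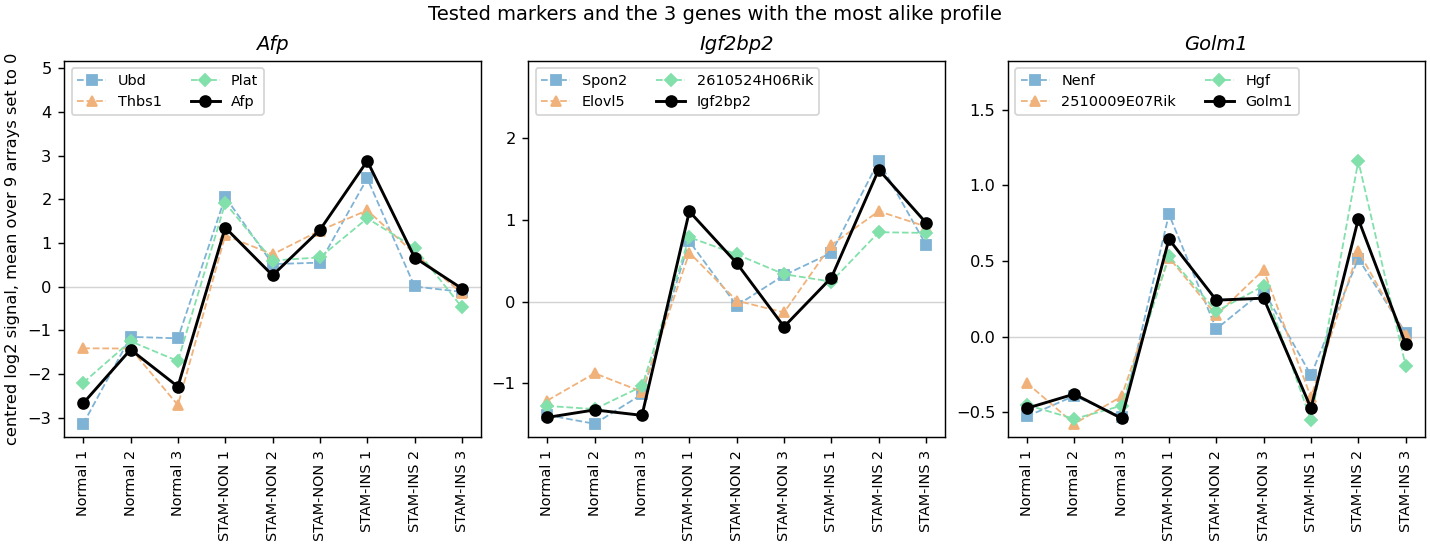
Centred log2 signal with the mean over 9 arrays set to 0 (y axis) on each array (x axis) for Afp, Igf2bp2 and Golm1 (black) and the 3 genes with the smallest root mean square difference from each. Ubd followed Afp to its peak on STAM-INS 1, and Spon2 followed Igf2bp2 to its peak on STAM-INS 2.

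Genes known to control or to accompany the members were examined as lists, which were chosen with earlier results of these data known. Of 10 regulators of Afp, H19 and Gpc3, 9 were tested, and in STAM-NON against Normal 0 were called higher and 1 lower by limma, with a list median of -0.39. The 1 called was Zbtb20, a zinc finger repressor of Afp in adult liver. It was lower by 0.64 on the log2 scale (1.56-fold, limma adjusted p = 0.0250) in STAM-NON and by 0.54 (1.45-fold, limma adjusted p = 0.0413) in STAM-INS. Zbtb20 kept its call in 13 of 24 alternatives in STAM-NON against Normal and in 10 of 25 in STAM-INS against Normal. Its centred log2 signal was 3.49, 3.87 and 3.59 in STAM-NON, 3.64, 3.64 and 3.98 in STAM-INS, and 4.30, 4.25 and 4.32 in Normal, with no overlap of either STAM group with Normal. Zhx2, another repressor of Afp, was too dim to test. Zfhx3, of the same list, went the other way from Zbtb20 and was not called. It was higher than Normal by 0.28 in STAM-NON (limma adjusted p = 0.142) and by 0.33 in STAM-INS (limma adjusted p = 0.105), also with no overlap. Afp moved apart from its neighbours. Alb and Afm, which flank it, and Gc, the fourth gene of that family, were not called in any comparison (limma). By the probe used for each gene, their differences from Normal lay between -0.88 and -0.14, while that of Afp was above 3. A second Gc probe differed from Normal by -0.37 in STAM-NON and -0.03 in STAM-INS, also without a call. At an unadjusted p under 0.05, 2 of the 3 genes were called by limma by the probe used in STAM-NON against Normal, as were 35.8% of all tested probes, and 0 in the other comparisons. In STAM-INS against Normal 32.5% of all tested probes reached that unadjusted p.

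The receptors of Igf2 were measured on every array. Igf1r, the receptor through which Igf2 signals, was higher in STAM-NON than in Normal by 0.83 (1.78-fold, limma adjusted p = 0.0357), and 10 of 24 alternative settings kept this call. In STAM-INS it differed from Normal by 0.12 (limma adjusted p = 0.712), and STAM-INS against STAM-NON by -0.70 (limma adjusted p = 0.473). Igf2r, which takes Igf2 up for breakdown, and Insr were not called in any comparison (limma).

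Of 12 other imprinted genes of fetal growth, 8 were tested, and 4 were called higher and 0 lower in STAM-NON against Normal, with a list median of 1.31. Among all tested probes 6.3% were called higher, and the median difference was -0.13. Mest was higher by 2.79 (6.92-fold, limma adjusted p = 0.0261) and Plagl1, a zinc finger factor of an imprinted gene network, by 1.64 (3.11-fold, limma adjusted p = 0.0263). Peg3, which none of the Normal arrays had well above background, was at least 2.51-fold higher (limma adjusted p = 0.0159). For Peg3 the adjusted p, here and in STAM-INS, rests on those Normal signals, and the probe passed the filter through the STAM arrays. In STAM-INS against Normal 2 of the 8 were called higher, Peg3 at least 2.37-fold (limma adjusted p = 0.0155) and Sgce 2.73-fold (limma adjusted p = 0.0344), and the list median was 0.97. There 5.16% of all tested probes were called higher, and their median difference over all tested probes was -0.09. The Plagl1 gene had 4 tested probes, of which 2 showed the rise in STAM-NON and the other 2 differed by -0.22 and -0.39 without a call. In STAM-INS against Normal the last of these probes differed by -0.68 and was called lower (limma adjusted p = 0.0193). The count of 4 fell to 1 without STAM-NON 1, STAM-NON 3 or any 1 of the Normal arrays, was 5 without STAM-NON 2 and was 0 with the slide row as a block or with no filter on dim probes. By the probe used for each gene, Mest kept its call in 14 of 24 alternatives, Plagl1 in 14 of 24 and Peg3 in 18 of 23. With normexp background correction the Peg3 difference was 0.41 (limma adjusted p = 0.121). In STAM-INS against Normal the count ranged from 1 to 4 when single arrays were left out. Igf2 and Dlk1, the imprinted members, were well above background on 1 and 3 of the 9 arrays.

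Of 22 other oncofetal and hepatocellular tumour markers, 17 were tested, and in STAM-NON against Normal 6 were called higher and 1 lower, with a list median of 0.96. Among all tested probes 6.3% were called higher and 16.1% in either direction, and the median difference was -0.13. Igdcc4, a cell surface protein of the immunoglobulin family, was at least 8.89-fold higher by the group mean (limma adjusted p = 0.0403). Its centred log2 signal was 0.31, -3.33 and 0.78 on the STAM-NON arrays, and no Normal array had it well above background. That adjusted p rests on Normal signals that were not well above background, and the probe passed the filter through the STAM arrays. Scd2, a fatty acid desaturase, was 5.54-fold higher (limma adjusted p = 0.0486), and Cd24a, a surface protein of progenitor cells, was 5.07-fold higher (limma adjusted p = 0.0289). Sall4, a fetal transcription factor, was the 1 called lower, by 0.61 (limma adjusted p = 0.0459). The count of 7 was 4, all higher, after quantile normalisation, and 0 with the slide row as a block or with no filter on dim probes. It fell to between 0 and 2 without STAM-NON 1, STAM-NON 3 or any 1 of the Normal arrays, to 3 or 4 without any 1 of the STAM-INS arrays, and was 9 without STAM-NON 2. Cd24a kept its call in 14 of 24 alternatives, Igdcc4 in 10 of 23, and Scd2 and Sall4 in 6 of 24 each. Igf2bp1, the third gene of the Igf2bp family, was not well above background on any array.

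In STAM-INS against Normal 4 of these markers were called higher and 1 lower, with a list median of 0.60. Among all tested probes 5.16% were called higher and 13.9% in either direction, and the median difference was -0.09. Tff3, a secreted trefoil peptide, had a centred log2 signal of 6.64, 6.66 and 5.41 in STAM-INS, -0.70, 2.60 and 7.31 in STAM-NON and -1.22, -1.84 and -2.20 in Normal. All STAM-INS arrays lay far above Normal (255-fold, limma adjusted p = 0.0196), and the STAM-NON arrays ranged from near Normal to above STAM-INS. Spink1, a trypsin inhibitor raised in liver tumours, was 18.6-fold higher (limma adjusted p = 0.0233), and Scd2 was 6.63-fold higher (limma adjusted p = 0.0395). Sall4 was again the 1 called lower, by 0.86 (limma adjusted p = 0.0180). The count of 5 ranged from 1, without STAM-INS 1 or any 1 of the Normal arrays, to 6 when single arrays were left out, and Tff3 and Spink1 each kept their call in 18 of 25 alternatives. In STAM-INS against STAM-NON limma called 0 genes of these 5 lists. At an unadjusted p under 0.05 it called 0 of the 9 regulators, 0 of the 3 genes of the albumin cluster, 2 of the 3 receptors, 1 of the 8 imprinted genes and 1 of the 17 tumour markers. At that threshold 8.78% of all tested probes passed in the same comparison.

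**Figure D4:**
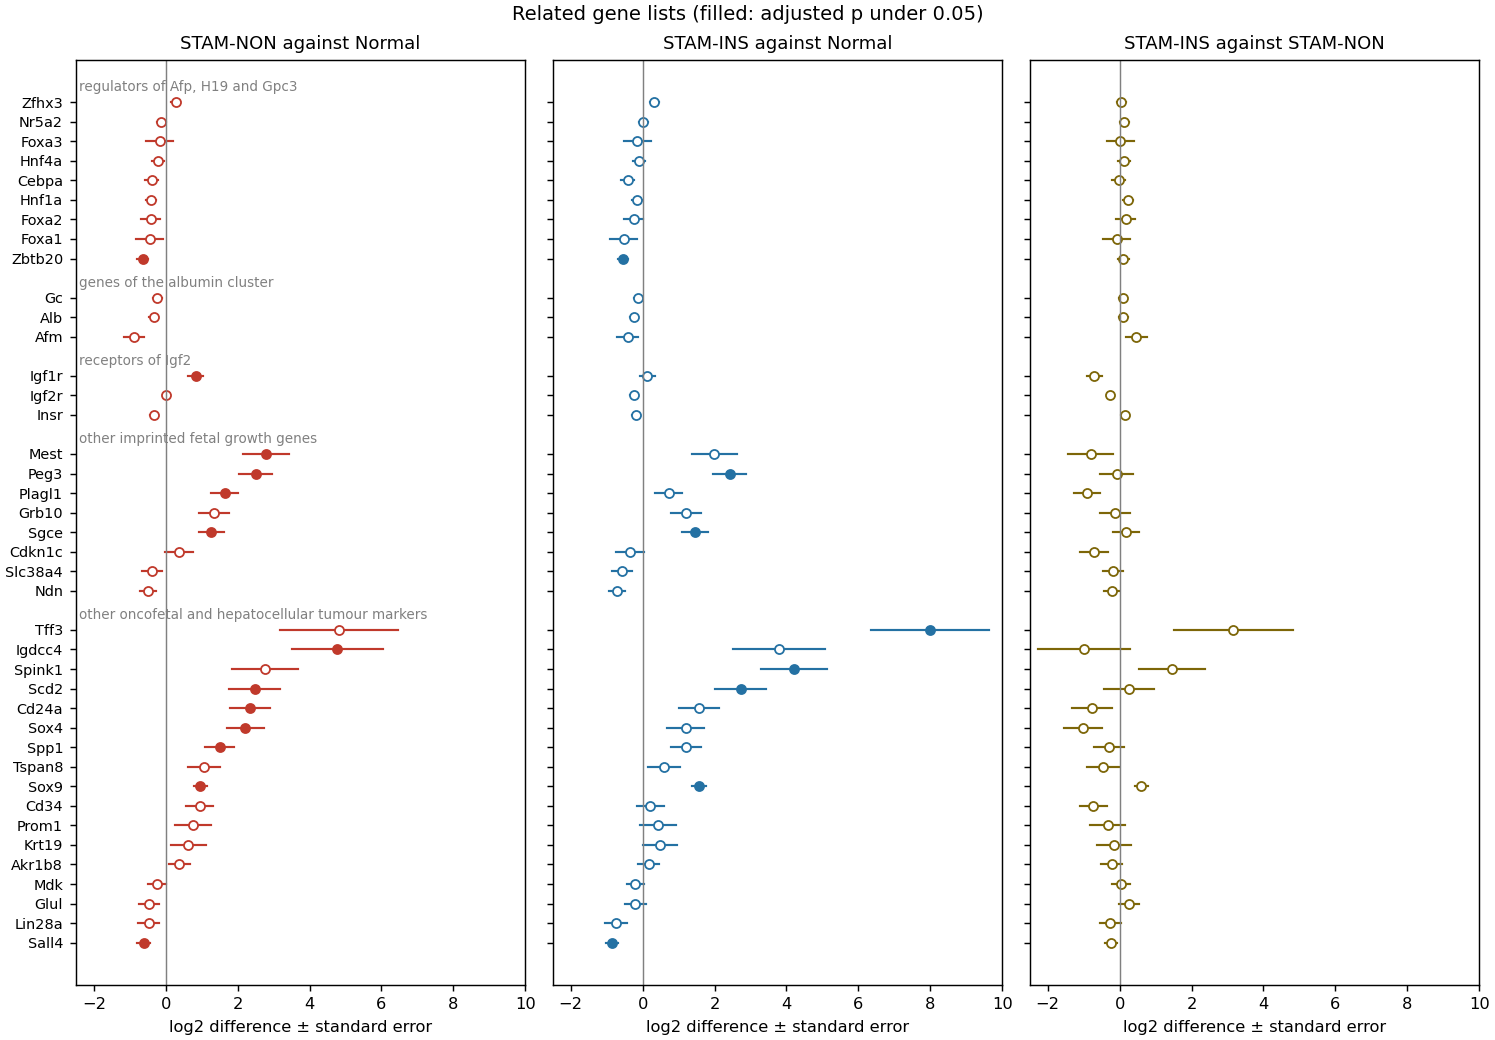
Difference in centred log2 signal with its standard error (x axis) for the tested genes of 5 lists (y axis) in the 3 comparisons. Filled points passed the test across all probes. Imprinted genes and tumour markers held 4 and 6 genes called higher in STAM-NON against Normal, where 6.3% of all tested probes were called higher. No point was filled in STAM-INS against STAM-NON.

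Markers of other cells were read beside the share of all tested probes. In STAM-NON against Normal 3 of 5 tested markers of biliary epithelium, 2 of 6 of macrophages, 1 of 6 of endothelium, 1 of 3 of pancreas and 1 of 5 of dividing cells were called higher. Of hepatocytes 1 of 8 was called lower. Of all tested probes 6.3% were called higher and 16.1% in either direction, so lists with 1 call are not read as a change of that cell type. The called biliary markers Sox9 and Spp1 are also in the list of tumour markers. In STAM-INS against Normal 1 of 5, 2 of 6, 0 of 6, 1 of 3 and 2 of 5 were called higher in the same order, and 1 of 8 of hepatocytes lower. There 5.16% of all tested probes were called higher. By the probe used for each gene, limma called no tested marker of stellate cells, lymphocytes, erythroid cells or adipose tissue in the adjusted test. At an unadjusted p under 0.05 in STAM-NON against Normal limma called 4 of 7, 1 of 3, 1 of 3 and 0 of 1. At that threshold 35.8% of all tested probes passed in the same comparison. A second probe of the lymphocyte marker Nkg7 was called higher in STAM-NON than in Normal (difference 1.504, limma adjusted p = 0.0146). That probe was also called higher in STAM-INS than in Normal (difference 0.9561, limma adjusted p = 0.0491). The mean centred log2 signal of the 6 biliary markers ranged from -1.56 to -0.70 in STAM-NON, from -1.34 to -1.07 in STAM-INS and from -2.51 to -1.65 in Normal. That of the 6 markers of dividing cells ranged from -3.00 to -1.20, from -2.54 to -0.44 and from -3.83 to -3.18 in the same order, and was highest on STAM-INS 2. Of these 6, Mki67, Cdk1 and Plk1 were well above background on all 9 arrays, and of the biliary markers Sox9, Spp1, Krt19 and Cftr were, while Krt7 was on 7 and Epcam on 5 of 9. The mean of the 6 macrophage markers ranged from 4.53 to 5.43, from 4.27 to 5.61 and from 3.47 to 4.15. That of the 8 hepatocyte markers ranged from 7.91 to 8.38, from 8.42 to 8.46 and from 8.48 to 8.51. The part of these cells in the levels of Afp, Igf2bp2 and the other members was not tested, and in bulk liver more cells of a type cannot be told apart from more RNA per cell.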

How the data were processed

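Labelled RNA of 9 livers was hybridised to single-colour mouse arrays. The deposited values used are the intensities of the scanner files, which the authors made with Agilent Feature Extraction 11.5.1.1 and which are background-subtracted processed signals for each spot. No normalisation or test for the arrays is given in the sources used here. Control spots and spots flagged as outliers were left out, log2 signals were averaged by probe, and the 75th percentile of each array was subtracted. A probe counted as well above background when at least 0.5 of its spots did, and 13 probes without a value on some array were left out. Groups were compared with limma 3.58.1 (R 4.3.3) on all 9 arrays, with Benjamini-Hochberg adjustment over 26278 probes. Where a gene had several probes, the tested probe with the highest mean was used. The others are given for the members, Plagl1, Gc and Nkg7, and not for the remaining genes of the lists. Genes were named through RefSeq accessions (27656 probes with a symbol). The array has no read depth, and the number of arrays limits the precision. P-values of limma weigh a difference of group means against the spread between mice, pooled over the groups and drawn towards that of other probes. Against Normal the difference also holds any difference between the slides. For a lower bound on a fold, each array of the dim group was set at the lowest signal of any probe well above background on it. Where the measured signal was higher, that was kept. Some probes not well above background lay above that lowest signal, so the bound holds only under this choice. The fit was tested on simulated data with independent noise, in which 200 probes drawn from all tested probes were given a log2 change of 2. Of these, 85 to 87.5% were recovered, depending on the comparison. This share does not describe the members, since the standard error was 0.71 for Afp and 0.18 at the median of the tested probes. The members and lists were chosen with earlier results of these data known. The named genes are the members, the 3 genes most alike to each tested member, and up to 3 called genes per list and comparison. Igf2bp1, Zhx2, Zfhx3, Sall4 and the uncalled genes of the albumin cluster and of the receptors were named after their values were seen. Alternatives covered background, scaling, filters, blocks, tests and left-out arrays. Background correction by normexp used median signals, and it was chosen after seeing the data, as were the fits within slide rows and without the 3 brightest arrays.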

Additional observations from a re-analysis of the deposited data

How the results depend on the processing

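The number of members called higher in STAM-NON against Normal, 2 in the reported fit, was 1 with normexp background correction, with probes well above background on all 9 arrays, with the replicate number as a block and without the 3 arrays with the most spots above background, where STAM-NON keeps 1 array that is assumed to vary like the other groups. It was 0 without a filter on dim probes, with the slide row as a block and by the methods' t-test after Benjamini-Hochberg adjustment (3 before it), and it ranged from 0 to 4 when single arrays were left out. The 4 came without STAM-NON 2, where Gpc3 and Dlk1 entered the test because the STAM-NON array on which they were below background was gone. Their calls in that setting rest on Normal signals that were not well above background and are no support for either gene. With all arrays and no filter neither was called. In STAM-INS against Normal the count, also 2, was 0 without the filter, 1 with the filter on all 9 arrays and 1 by the adjusted t-test, and ranged from 1 to 2 when single arrays were left out. In STAM-INS against STAM-NON it was 0 in each setting run. The cause was not tested, except that a looser filter tests 55655 probes and adjusts over them. The filter on all 9 arrays took Igf2bp2 out of the test, since neither of its probes was well above background on every array. Among the members and the gene lists, no difference called in the reported fit turned its sign in a setting, by the probe used for each list gene. The setting with another tested probe was run for the members alone. In STAM-NON against Normal Plagl1 differed by 1.64 with the probe used, and by 1.75, -0.22 and -0.39 with its other probes. Cell markers outside those lists were not followed over the settings.

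Afp kept its call against Normal in 14 of 24 alternatives in STAM-NON (difference 0.54 to 3.46) and in 20 of 25 in STAM-INS (2.44 to 3.90), Igf2bp2 in 16 of 24 (0.67 to 2.80) and 24 of 25 (1.04 to 2.87). Golm1 passed in 3 of 24 and 0 of 25. The replicate numbers do not pair the mice, since the deviations of same-numbered arrays correlated between -0.29 and 0.15. With the replicate block the member count was 1 in STAM-NON against Normal (Igf2bp2, limma adjusted p = 0.0493, while Afp lost its call, limma adjusted p = 0.0520), 2 in STAM-INS against Normal and 0 in STAM-INS against STAM-NON, and 991 probes were called higher and 1025 lower in the first of these. Slide as a block could not be fitted against Normal, as each slide held either STAM or Normal arrays. Scaling moved the median difference of all probes in STAM-NON against Normal from -0.13 to between -0.30 (array median) and 0.03 (percentile of probes detected on all arrays). The calls were 1655 higher and 2565 lower in the reported fit, 1537 and 1425 after quantile normalisation, 2093 and 1061 with that percentile and 1571 and 718 with spike-ins as the reference. Signal over background limits Gpc3, Igf2, Dlk1 and Igf2bp3, and the differences of Gpc3 and Dlk1 in STAM-NON against Normal shrank under normexp.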
